A study of Homo sapiens with 3 samples.

Results

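RPL22 and RPL22L1 are the genes of the 2 proteins that were tagged in this study, and the peaks of bound RNA that fell on these genes themselves are described here. A peak belonged to a gene when its summit lay within the RefSeq bounds of that gene on GRCh38. This gave 29 of the 408413 deposited peaks, 9 from cells with RPL22-HaloTag and 20 from cells with RPL22L1-HaloTag. RNA bound by the fusion proteins had been captured by GoldCLIP, a crosslinking method in which the HaloTag, a protein tag that bonds covalently to a resin, takes the place of an antibody. All 3 samples were HCT116, a line from a human colorectal carcinoma, expressing HaloTag by itself, RPL22-HaloTag or RPL22L1-HaloTag, with 1 library each. The labels do not say whether the fusions came from an added construct or from the endogenous genes, and do not say whether a line was a single clone. The HaloTag sample was not analysed here, so no background level stands beside any count, and with 1 library per group no test between the groups was possible.

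RPL22 (eL22) belongs to the large ribosomal subunit and also binds RNA hairpins outside the ribosome, and RPL22L1 is its paralog and can take its place in the ribosome. In mouse cells RPL22 has been reported to bind the Rpl22l1 transcript and to hold its level down. A peak of a protein in its own gene is called auto-binding here and a peak in the gene of the paralog cross-binding. Peaks carry no strand and the HaloTag sample was not analysed, so a peak does not by itself show binding to that transcript. The peaks of the RPL22-HaloTag library are called the RPL22 list and those of the RPL22L1-HaloTag library the RPL22L1 list.

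Both fusion proteins gave peaks on both genes, and the highest peak on RPL22L1 outranked the highest on RPL22 in each list. The RPL22 list held 5 peaks in RPL22 and 4 in RPL22L1, while the RPL22L1 list held 17 in RPL22 and 3 in RPL22L1. All 7 peaks in RPL22L1 overlapped a peak of the other list, against 4 of the 22 in RPL22, which were 2 of its 5 RPL22 peaks and 2 of its 17 RPL22L1 peaks. Over the whole lists 17.4% of RPL22 peaks and 10.6% of RPL22L1 peaks overlapped, so the counts in RPL22 are no result about that gene. Of 20050 protein-coding genes 68.3% held an RPL22 summit and 69.8% an RPL22L1 summit, so the presence of a peak by itself did not set the genes apart.

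The lists differed in length, at 154000 peaks for RPL22 and 254413 for RPL22L1. Each peak carries a whole-number score given by the authors. Scores of separate libraries need not share a scale, so peaks are given by their rank within their own list, where rank 1 is the highest score, and by that rank as a percentage of the list. A peak of 30 bases, the least width in either list, whose summit stood 15 bases from its start is called flat. Such peaks, which show no resolved maximum, were 64.9% of all RPL22 peaks and 77.9% of all RPL22L1 peaks. The number of reads behind the peaks is unknown. Neither input RNA nor transcript levels were measured in the files, so stronger binding and a more abundant transcript cannot be told apart.

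Near their starts both genes hold an ATG followed closely by splice donor letters. Both lie on the minus strand, and a short stretch just after each annotated start is shown. The annotated start itself, from which the distances of peaks are counted, lies before the printed letters. In the RefSeq sequence of GRCh38.p14, 5′ to 3′, the capitals mark the first ATG after the annotated start and the first match after it to the splice donor letters GTNAGT.
RPL22: gccgccATGgctcctgtgGTTAGTatggct
RPL22L1: cgcaagATGgcgccgGTGAGTgagcgat
The stretches are chr1:6199550-6199579 and chr3:170870146-170870173. Counted from the first annotated base, the ATG stands at base 23 in RPL22 and base 29 in RPL22L1, and the donor letters begin at base 35 and base 38. The letters GTNAGT occur in the first 50 bases of 3.76% of 35116 RefSeq start windows on the gene strand and in 6.31% on either strand. Neither list held a peak anywhere in the windows around these starts, which reach from 250 bases before to 50 bases after the start. The first peak of RPL22 began 409 bases after the start of the gene and the first of RPL22L1 1848 bases after it. Exon and intron bounds beyond these letters were not used here, so peaks are placed by their distance from the gene start. No letters are printed for the peaks themselves, whose genome sequence was not used here.

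Cross-binding of RPL22 in the RPL22L1 gene was seen as 4 peaks. RPL22L1 spans 5321 bases of chromosome 3 (170864875 to 170870195) and no other annotated gene overlaps it. The highest RPL22 peak lay at 170868158 to 170868198, with a score of 477 and rank 1676, in the top 1.09% of the list. Beside it, 170868020 to 170868082 ranked 1735 with a score of 470. The third, 170866406 to 170866435, ranked 2129 with a score of 411, so these 3 peaks lay close together in rank. The fourth, at 170868294 to 170868324, stood apart with a score of 127 and rank 15024, in the top 9.76%.

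Auto-binding of RPL22L1 fell on the same stretches in broader peaks. The one at 170868271 to 170868347 ranked 428 with a score of 3700, in the top 0.168% of the RPL22L1 list. Next came 170868006 to 170868203, ranked 455 with a score of 3474, and 170866389 to 170866498, ranked 756 with a score of 1886. All 3 were thus within the top 0.297% of the list. They were 77, 198 and 110 bases wide, against a median of 30 bases for the list, and only 73 of the 254413 peaks were at least as wide as the one of 198 bases. The RPL22 peaks in the gene were narrower, from 30 to 63 bases.

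The peaks of both proteins in RPL22L1 formed 2 blocks. The larger block covered 342 bases, from 1848 to 2189 bases after the gene start, and held 3 of the 4 RPL22 peaks and 2 of the 3 RPL22L1 peaks. The smaller covered 110 bases, from 3697 to 3806 bases after the start, with 1 peak of each list. No peak of either list lay in the first 1848 bases, in the last 1514 bases, or within 5000 bases outside the gene.

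Within the blocks the RPL22 peaks were nested in the broader RPL22L1 peaks. The RPL22 peaks covered 165 bases, and 165 of them, or 100%, lay inside RPL22L1 peaks, which covered 385 bases. Measured the other way, 42.9% of the RPL22L1 bases were covered by RPL22 peaks. In the 198-base peak the RPL22L1 summit and one RPL22 summit were at the same base, 170868075. In the 77-base peak the summits lay 1 base apart, at 170868324 and 170868323. In the 110-base peak they lay 49 bases apart, and the second RPL22 summit within the 198-base peak was 107 bases from the RPL22L1 summit.

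The order of strength inside the gene was not the same for both proteins. The 77-base stretch at 170868271 to 170868347 held the highest of the 3 RPL22L1 peaks and the lowest of the 4 RPL22 peaks. The highest RPL22 peak lay instead inside the 198-base RPL22L1 peak, which came second of the 3 RPL22L1 peaks in the gene. Whether these orders would hold in further libraries was not tested.

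Complete overlap of this kind was seen in few protein-coding genes. Of 9510 protein-coding genes holding 3 or more summits in each list, 2 had every peak of both lists overlapping, or 0.021%. They were RPL22L1 and APLP1, the latter named here because it was the only other gene and thus chosen after its values were seen. APLP1, which encodes a membrane protein related to the amyloid precursor protein, held 3 peaks in each list. The 9510 genes had no upper limit on summits, and a gene with many peaks can less easily have all of them overlapping. No share was taken over genes with as few peaks or as high ranks as RPL22L1. Taken by one list only, every RPL22 peak overlapped in 0.473% of the 10361 genes with at least 3 RPL22 summits, and every RPL22L1 peak in 0.0364% of the 10998 genes with at least 3 RPL22L1 summits. None of the 7 peaks in RPL22L1 was flat, as in 0.2% of those 9510 genes. Overlap here means at least 1 shared base. When at least 50% of both peaks had to be shared, 0 of the 7 peaks in RPL22L1 and 0 of the 22 in RPL22 still overlapped, because each pair set a narrow peak against a broad one. When summits had to lie within 50 bases, 3 of the 4 RPL22 peaks in RPL22L1 and all 3 of its RPL22L1 peaks were kept.

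Auto-binding of RPL22 in its own gene was weaker by rank and spread over most of the gene. RPL22 spans 14576 bases of chromosome 1 (6185020 to 6199595), also without an overlapping gene. Its highest RPL22 peak lay at 6187655 to 6187687, 11917 bases from the start, with a score of 238 and rank 5216, in the top 3.39% of the list. The peaks at 6198882 to 6198911 and 6197712 to 6197752 had scores of 82 and 79 and ranks of 27113 and 27835. The remaining 2, at 6196759 to 6196788 and 6192021 to 6192050, were flat, with scores of 42 and 33 and ranks of 64830 and 68706. The strongest auto-binding peak of RPL22 therefore ranked below 3 of the 4 cross-binding peaks of the same list in RPL22L1.

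Cross-binding of RPL22L1 to RPL22 gave the largest number of peaks and the lowest ranks. Of the 17 peaks, 11 were flat and 6 were not. The highest lay at 6197690 to 6197808, with a score of 368 and rank 16753, in the top 6.58% of the RPL22L1 list, and at 119 bases it was also the widest. The next were a flat peak at 6198764 to 6198793 with a score of 331 and a peak at 6186792 to 6186832 with a score of 307. The other 14 had scores between 39 and 242, and 9 of the 17 reached the median score of the list, 124. All 3 RPL22L1 peaks in the RPL22L1 gene ranked above every one of these 17.

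Most RPL22L1 peaks in RPL22, many of them flat, lay in the first or the last 20% of the gene. No share by position was taken over other genes. The stretch from 80% to 100% of its length held 9 of the 17, of which 5 were not flat. The first 20% held 6, of which 1 was not flat, the peak of 119 bases. The middle of the gene, from 20% to 60%, held 0 RPL22L1 peaks and 1 RPL22 peak. Of the 5 RPL22 peaks 3 lay in the first 20% and 1 in the last 20%. One more flat RPL22L1 peak lay just outside, 51 bases beyond the end of the gene.

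The proteins met at 2 places in RPL22. At 6187655 to 6187687 the highest RPL22 peak of the gene shared 30 of its 33 bases with an RPL22L1 peak of 76 bases (score 242, rank 46906), and the summits were 2 bases apart. At 6197712 to 6197752 an RPL22 peak lay wholly inside the highest RPL22L1 peak of the gene, with summits 59 bases apart. The highest peak of each list in RPL22 was thus one of the shared ones, although the pairs were not the same. The other 3 RPL22 peaks had their nearest RPL22L1 peak 88, 901 and 2020 bases away. Shared bases made up 43.3% of the RPL22 peaks and 9.48% of the RPL22L1 peaks in the gene. At least 1 overlapping peak was found in 39.9% of protein-coding genes in each list, so that its presence in RPL22 was common.

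**Figure D1:**
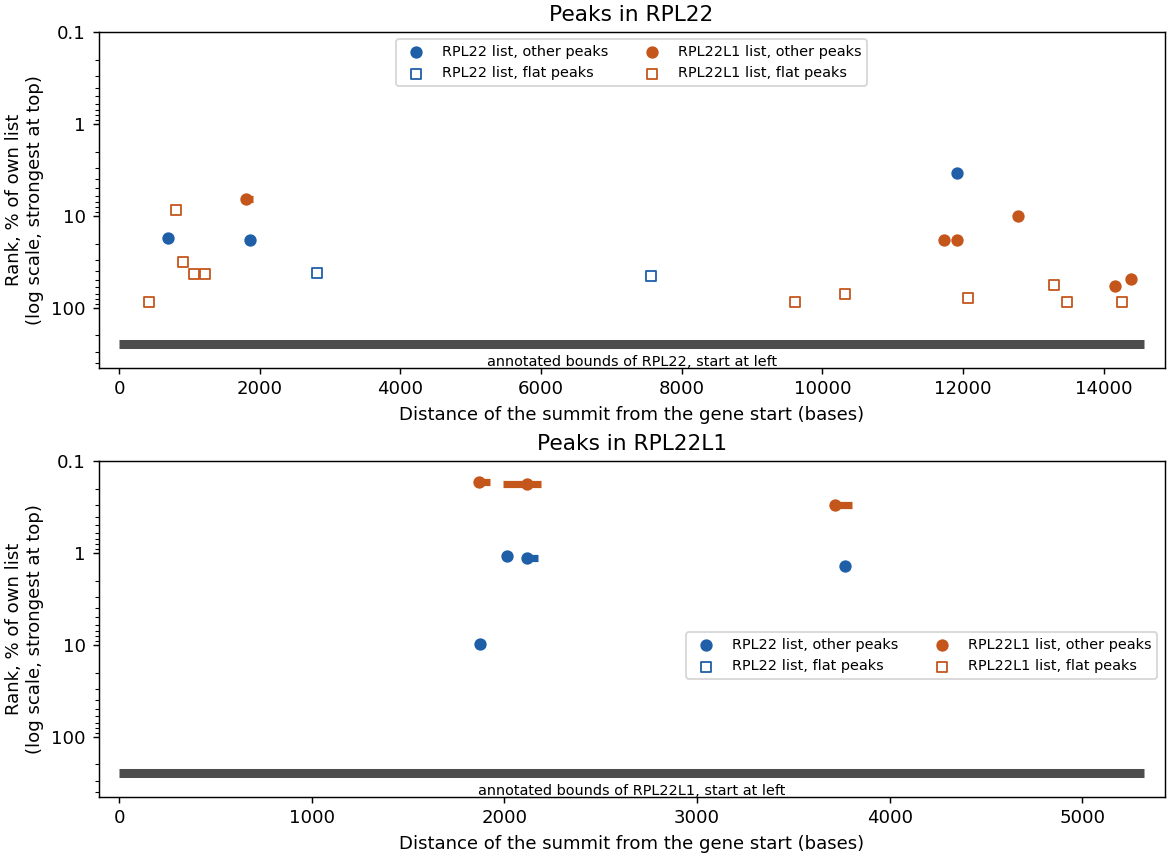
Peaks in RPL22 (upper panel) and RPL22L1 (lower panel), by distance of the summit from the gene start in bases and by rank as a percentage of the own list on a log scale with the strongest at the top. Blue stands for the RPL22 list, orange for the RPL22L1 list, open squares are flat peaks, filled circles are other peaks and horizontal strokes show peak width; the RPL22L1 peaks in RPL22L1 lie at 0.168 to 0.297%, directly above the RPL22 peaks of the same 2 blocks.

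The genes were placed among the 20050 protein-coding genes by their highest peak. By the RPL22L1 list 167 genes, or 0.833%, had a better best rank than RPL22L1, and in the RPL22 list 1037 did, or 5.17%. For RPL22 these shares were 31.8% in the RPL22L1 list and 15.5% in the RPL22 list. RPL22L1 stood above RPL22 in both lists, and RPL22 itself was not prominent in either.

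The number of peaks for the length of the gene gave another order. RPL22 held 0.343 RPL22 summits and 1.17 RPL22L1 summits per kb, and RPL22L1 held 0.752 and 0.564. The median over protein-coding genes was 0.0991 RPL22 summits and 0.128 RPL22L1 summits per kb. A higher density than that of RPL22L1 was found in 3.94% of genes for RPL22 summits and in 18.9% for RPL22L1 summits, and a higher density than that of RPL22 in 17.6% and 4.61%. For the RPL22L1 list, RPL22 was thus the denser gene and RPL22L1 the one with the stronger peaks. This order of density turned around without the flat peaks: without them 3.70% of genes were denser than RPL22L1 in the RPL22L1 list and 5.92% denser than RPL22.

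Other genes for cytosolic ribosomal proteins served as the nearest comparison. Of these 85 genes 34 hold at least 1 annotated small RNA. Several ribosomal protein genes are known to carry snoRNAs in their introns. RPL22 summits lay in 66 of the 85 genes, a share of 77.6% (67.3 to 85.97%), and RPL22L1 summits in 76, a share of 89.4% (80.8 to 95.04%). Of all protein-coding genes 68.3% held an RPL22 summit, which lies within the first interval, and 69.8% an RPL22L1 summit. Both lists had a summit in 65 of them and neither in 8. The intervals are exact Clopper-Pearson 95% intervals for counting error only. An overlapping peak was present in 51, or 60% (48.8 to 70.5%), against 39.9% of protein-coding genes.

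How often all peaks of a gene overlapped depended on how few it held. With any number of summits, every RPL22 peak overlapped in 20 of 66 other ribosomal protein genes, or 30.3%, against 2.77% of protein-coding genes with an RPL22 summit. Every peak of both lists overlapped in 3 of 65, or 4.62%, against 0.64% of protein-coding genes with a summit in both lists. These 3 were RPSA, RPL30 and RPL23A, with 1 peak in each list, all of them in annotated small RNAs. Of the 25 other genes with at least 3 RPL22 summits, as RPL22L1 has, 1 had every RPL22 peak overlapping, RPL15, which encodes another large-subunit protein and held 3 RPL22 and 11 RPL22L1 peaks. Of the 56 other genes with at least 3 RPL22L1 summits, 0 had every RPL22L1 peak overlapping, which allows a share of up to 6.38% at the upper limit of the exact interval. RPL22L1 was also among the few with more RPL22 than RPL22L1 peaks. This held for 6 of the 77 other ribosomal protein genes with any summit, or 7.79%, and for 25.9% of protein-coding genes with any. In RPL22L1 it followed from 1 broad RPL22L1 peak that spanned 2 RPL22 peaks. RPL22, with fewer RPL22 than RPL22L1 peaks, was like 63 of the 77.

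By the highest peak, 20 of the 87 ribosomal protein genes stood above RPL22L1 in the RPL22L1 list and 37 in the RPL22 list. Above RPL22 stood 64 and 44. Many of those peaks lay in small RNAs inside the genes. When summits in annotated small RNA genes were left out, a choice made after the data were seen, 1 gene remained above RPL22L1 in the RPL22L1 list and 23 in the RPL22 list. The 1 gene was RPL15, with rank 179. For RPL22 46 and 31 genes remained. The auto-binding peaks of RPL22L1 were therefore among the highest on any ribosomal protein gene outside small RNAs in these libraries, while the peaks of RPL22 on its own gene were in the middle of the family.

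**Figure D2:**
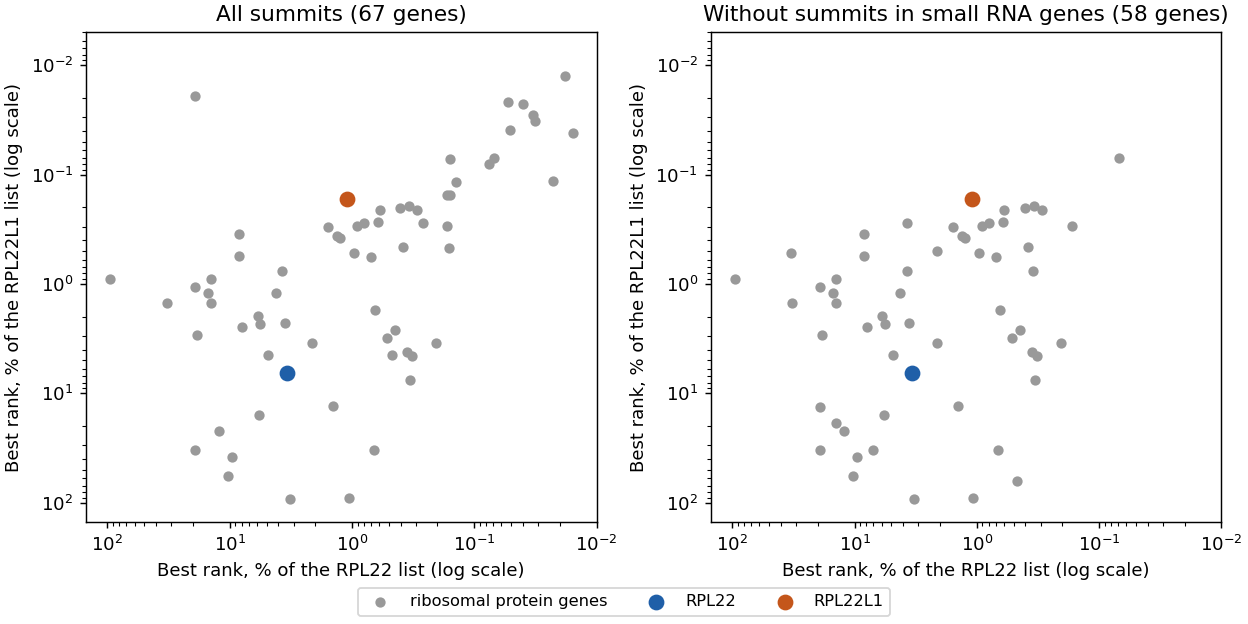
Best rank of each ribosomal protein gene as a percentage of the RPL22 list (x axis) and of the RPL22L1 list (y axis), both on log scales with the strongest to the right and top, for genes with a summit in both lists. The left panel uses all summits (67 genes) and the right panel leaves out summits in small RNA genes (58 genes); in the right panel only RPL15 lies above RPL22L1 (orange), and RPL22 (blue) lies at 3.39% and 6.58%.

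The ribosomal protein genes most like each member were found by the summed difference in log10 of best rank over list length, over both lists and 66 genes with summits in both. For RPL22L1 they were RPLP0 (ranks 1408 and 750 in the RPL22 and the RPL22L1 list), RPS25 (915 and 532) and RPLP1 (1217 and 710), at distances of 0.319, 0.357 and 0.359. RPLP0 and RPLP1 encode proteins of the ribosomal stalk and RPS25 a protein of the small subunit. Their overlap was less complete than that of RPL22L1. In RPLP0 4 of 6 RPL22 peaks and 5 of 10 RPL22L1 peaks overlapped, in RPLP1 2 of 3 and 2 of 6. In RPS25 0 of 1 and 0 of 3 did. Over the whole lists 17.4% of RPL22 peaks and 10.6% of RPL22L1 peaks overlapped. RPLP0 and RPLP1 thus also stood above both of these shares, as RPL22L1 did. For RPL22 they were RPS10 (7466 and 11305), RPL36A (3288 and 8794) and RPS21 (5486 and 5793), at distances of 0.327, 0.480 and 0.483.

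Other ribosomal protein genes that have a paralog were compared by the same counts. RPL7 held 2 RPL22 and 10 RPL22L1 peaks, and RPL7L1, whose protein acts in ribosome assembly, held 8 and 16. In RPL7L1 5 peaks of each list overlapped, the largest number among these genes. RPL3L, RPL10L and RPL39L, paralogs known for expression in muscle or testis, held 0 peaks in both lists. Their parent genes RPL3, RPL10 and RPL39 held 2, 0 and 1 RPL22 peaks and 1, 3 and 3 RPL22L1 peaks. All 3 peaks in RPL3 and, in RPL39, the RPL22 peak and 2 of the 3 RPL22L1 peaks had their summit in a small RNA inside the gene. RPL26L1 held 5 and 4 peaks, RPL36AL 3 and 3, and RPS27L 1 and 6, and none of these overlapped between the lists. Over the whole lists only 17.4% of RPL22 peaks and 10.6% of RPL22L1 peaks did, so this is no result about these genes. RPL26 held 1 and 9, RPL36A 2 and 14 and RPS27 1 and 2. Among the parent genes RPL7 had 2 overlapping peaks in each list, RPL3, RPL26, RPL36A and RPL39 had 1, and RPL10 and RPS27 had 0. Of the 5 paralogs that held any peak, RPL22L1 was the one in which every peak of both lists overlapped.

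**Figure D3:**
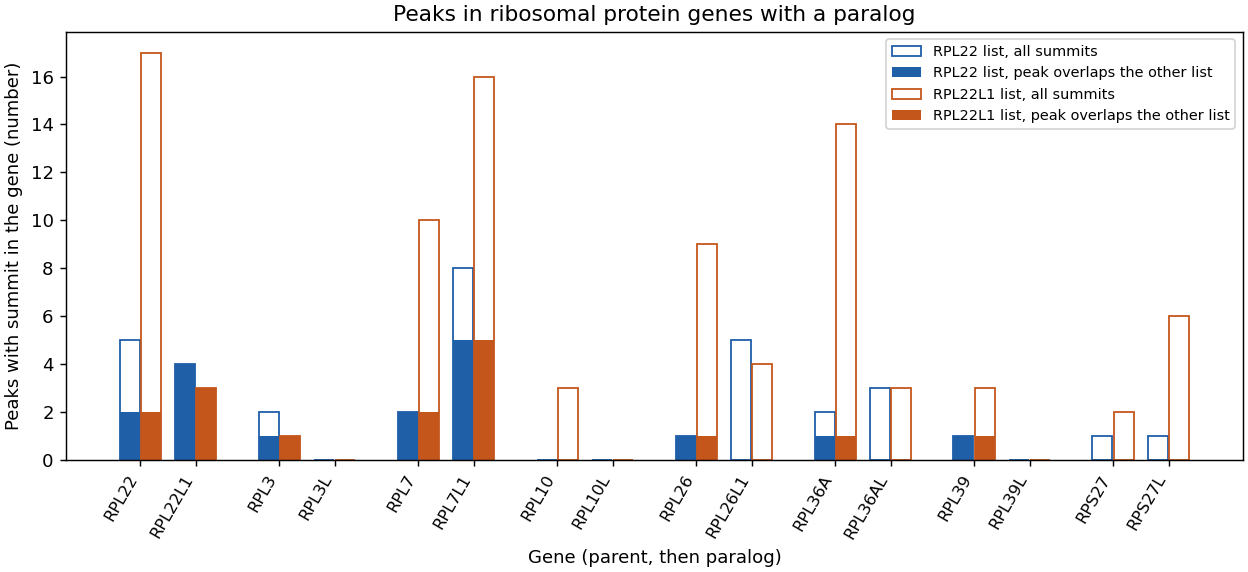
Number of peaks with their summit in each ribosomal protein gene that has a paralog (y axis), with parent gene and paralog side by side, for the RPL22 list (blue) and the RPL22L1 list (orange). Filled parts are peaks that overlap the other list; RPL22L1 is filled throughout at 4 and 3, while RPL22 is filled for 2 of 5 and 2 of 17.

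RPL22 has many processed copies, between which reads of the spliced transcript could be divided. Of 22 annotated RPL22 pseudogenes 1 held an RPL22 peak and 2 held an RPL22L1 peak. RPL22P12 on chromosome 2 held a flat peak of each list, with scores of 21 and 168 and ranks of 100612 and 83348, which did not overlap. RPL22P13 on chromosome 4 held 1 RPL22L1 peak with a score of 34 and rank 226720. The placing of reads that match several positions is not given in the sources used here, and its part in the low ranks within RPL22 was not tested. The sequence of the fusion transcripts is not given in the sources used here. Where its bases are the same as those of the endogenous exons, reads from the 2 cannot be told apart. In the list of RPL22-HaloTag cells the RPL22 gene had its highest peak at rank 5216, below that of RPL22L1, and in the list of RPL22L1-HaloTag cells the RPL22L1 gene had its highest peak at rank 428.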

How the data were processed

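Peak lists of RNA bound in HCT116 cells were analysed for 2 of the 3 samples, 1 library per group. Per the submitters' processing notes, cutadapt 4.8, STAR 2.7.10a, UMI-tools 1.1.5, MACS3 3.0.0a6 and the build hg38 were used, without their roles or settings. The deposited score is a whole number given by the authors for each peak, the lowest being 13 in both lists, and its scale is not given in the sources used here. It served only to rank peaks within a list, with tied peaks at the best rank. The control used for peak calling is not given in the sources used here, and peaks carry no strand.

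Summits were set against the bounds of 59716 RefSeq genes of GRCh38.p14. That table has no exons, so the planned split into exons and introns was not made. The printed stretches near the gene starts come from RefSeq start windows. Overlap meant at least 1 shared base. Blocks joined peaks no more than 100 bases apart. Python 3.11.15 was used with pandas 2.3.3, numpy 2.4.6 and, for intervals and figures, scipy 1.17.1 and matplotlib 3.10.9, and the counting and overlap code was tested on simulated data. The genes named were both members, 7 further paralog pairs, and the 3 ribosomal protein genes most like each member. APLP1, RPL15, RPSA, RPL30, RPL23A and the RPL22 pseudogenes with a peak were named after their values were seen. The members, lists and rules were chosen with earlier results of these data known. Depth is unknown, so no precision could be set from it.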

Additional observations from a re-analysis of the deposited data

How the results depend on the processing

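Of 107 alternative values, 65 kept within their limit and 42, both counts and shares, moved past it. The limit was 1.5-fold for counts and ranks and the exact 95% interval for shares of genes. That interval is narrow, so some of the moved shares changed by little, while others changed much. The share of genes with a better best rank than RPL22L1 in the RPL22L1 list, 0.833%, became 1.18% among genes with a summit in both lists. Among ribosomal protein genes alone it became 22.99%. Without flat peaks RPL22 held 3 and 6 summits in the RPL22 and the RPL22L1 list, and the latter number was 9 above the median score and 11 in lists of equal size. With overlap of at least 50% of both peaks 0 peaks overlapped in either gene, and with summits within 50 bases 1 peak of each list did in RPL22. In RPL22L1 3 of the 4 RPL22 peaks and all 3 RPL22L1 peaks had a summit of the other list within 50 bases. The 4 and 3 overlapping peaks in RPL22L1 were kept without flat peaks, above the median score and in lists of equal size. These settings could not remove them by score or shape, which says nothing about stability. The merging of peaks up to 10 bases apart changed nothing, since the smallest gap was 31 bases. Requiring 3 summits left 25 other ribosomal protein genes in the RPL22 list.

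Shares of genes with a better best rank were, among genes with a summit in both lists, 24.4% and 49.6% for RPL22 and 8.15% and 1.18% for RPL22L1, in the RPL22 and the RPL22L1 list. Among ribosomal protein genes alone they were 50.6%, 73.6%, 42.5% and 22.99% in the same order, and 35.6%, 52.9%, 26.4% and 1.15% without summits in small RNA genes, a setting added after the data were seen. Without flat peaks the share for RPL22 in the RPL22L1 list was 27.5%.

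Shares of genes with more summits per kb were, in that order, 26.5%, 6.77%, 5.76% and 28.3% among genes with a summit in both lists and 43.7%, 41.4%, 18.4% and 67.8% among ribosomal protein genes. They were 9.47%, 3.77%, 2.21% and 4.67% above the median score, peaks at the median included, and 14.2%, 5.92%, 1.69% and 3.70% without flat peaks. Lists of equal size gave 3.43% for RPL22 and 6.93% for RPL22L1 in the RPL22L1 list. Apart from the change in genes or peaks by which each setting is built, the cause was not tested. The division into exons and introns, with its alternatives, was not run. No paired analysis was possible because each group has 1 library and no result comes from a test between groups.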
